A study of Homo sapiens with 24 samples.

Results

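Of the 14411 genes listed in any of the 3 tables, 10 are described here: the bone morphogenetic protein (BMP) ligands BMP8A and BMP4, the receptors BMPR1A, ACVR1 and BMPR2, the signal transducers SMAD1, SMAD5 and SMAD9, the inhibitor SMAD6, and the transcription factor gene ATOH8. They were taken by name, and the names were chosen by their measured responses (log2 fold change and FDR of Dox against Control in these same libraries), so that their values are a description without tests. All but BMP4 were in all 3 tables. Polyadenylated RNA came from Panc-1, an established human pancreatic ductal carcinoma line, in which the acinar factors MIST1 or PTF1a were switched on to ask what they do to the tumour cell's genes. The Tet-One line held the plasmid without an insert, the Tet-MIST1 line the plasmid with the rat MIST1-myc reading frame and the Tet-PTF1a line the plasmid with the mouse PTF1a-myc reading frame, each line being a clone selected in puromycin. Each line gave 4 Control libraries without doxycycline (Dox) and 4 Dox libraries after 72 h in Dox at 1 µg/ml, at passage 32 for Tet-One and Tet-PTF1a and at passage 33 for Tet-MIST1. All 6 groups thus shared the Panc-1 background, the vector and selection, and a difference between lines cannot be told apart from a difference between clones.

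BMPs are secreted dimers of the TGF-beta superfamily that bring together type II receptors, such as BMPR2, and type I receptors, such as BMPR1A and ACVR1. The type I receptor phosphorylates the receptor-regulated SMADs, SMAD1, SMAD5 and SMAD9, which enter the nucleus with SMAD4 and switch on genes such as ID1, ID2, ID3, SMAD6, SMAD7 and, in several tissues, ATOH8. SMAD6 blocks the pathway at the receptor and SMAD level, which closes a feedback loop, and BMP signals are known to act in pancreas development. ATOH8 encodes a basic helix-loop-helix (bHLH) factor of the atonal-related group, the superfamily to which PTF1a and MIST1 also belong.

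Promoters are shown for the 3 genes with the largest Dox differences in Tet-PTF1a, because PTF1a and MIST1 bind E boxes (CANNTG) and SMADs bind sequences such as GTCTAGAC and the GC-rich GGCGCC. Each line below holds the 250 bases before the RefSeq transcription start on the plus strand of GRCh38.p14, a different build from the hg19 of the deposited tables. Capitals mark the E boxes in ATOH8 and BMP8A and GTCTAGAC in SMAD6.
ATOH8 promoter (chr2:85753741-85753990): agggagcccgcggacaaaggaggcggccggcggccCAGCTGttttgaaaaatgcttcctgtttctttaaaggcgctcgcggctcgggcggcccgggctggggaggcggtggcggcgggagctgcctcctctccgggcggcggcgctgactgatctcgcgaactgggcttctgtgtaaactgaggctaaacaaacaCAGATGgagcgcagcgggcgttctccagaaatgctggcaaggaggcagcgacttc
BMP8A promoter (chr1:39491386-39491635): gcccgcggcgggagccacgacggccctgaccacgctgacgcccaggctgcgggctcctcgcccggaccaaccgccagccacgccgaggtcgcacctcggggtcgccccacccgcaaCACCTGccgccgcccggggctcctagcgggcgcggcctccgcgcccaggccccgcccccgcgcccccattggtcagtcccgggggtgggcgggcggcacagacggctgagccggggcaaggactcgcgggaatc
SMAD6 promoter (chr15:66701986-66702235): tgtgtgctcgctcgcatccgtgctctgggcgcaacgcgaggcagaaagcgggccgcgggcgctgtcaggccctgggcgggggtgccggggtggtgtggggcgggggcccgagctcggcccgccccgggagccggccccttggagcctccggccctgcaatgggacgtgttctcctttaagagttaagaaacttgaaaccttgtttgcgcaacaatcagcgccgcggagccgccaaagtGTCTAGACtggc

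All 10 genes had RefSeq promoters, 18 start sites in total, and motifs were searched on both strands from 250 bases before to 50 bases after each start. The ATOH8 window held CAGCTG with its first base at -215 from the start, and CAGATG, the reverse complement of CATCTG, at -55 and -1. In hg19 the printed ATOH8 bases are chr2:85980864-85981113, and the ATOH8 exons used for counting begin inside them, at 85980909. The sites at -55 and -1 thus lie after the first listed exon base, although they are before or at the RefSeq start. Over all 35116 promoters of this length, CAGCTG was present in 17.9% and CATCTG in 14.7%, and both are also counted among the E boxes CANNTG, present in 68.7%. BMP8A held 1 E box, CACCTG at -134. SMAD6 held 1 E box, CATATG at -1, and the palindrome GTCTAGAC at -12, which 0.202% of all promoters contained. GGCGCC (19.2% of all promoters) was found in 6 of the 18 windows, in BMP4, BMPR2, ACVR1, SMAD1 and SMAD5. The TC box TGGGAAA, which PTF1a uses together with an E box, was in none of the 18 windows and in 7.92% of all promoters.

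The counted reads per library ran from 17210989 to 43018494, and Tet-PTF1a held the 6 shallowest libraries. The epithelial and ductal markers KRT8, KRT18, KRT19, KRT7 and EPCAM were listed in all 3 lines, none of 5 endothelial markers was listed in any, and of 4 leucocyte markers CD14 alone was listed. These 5 markers went both ways with Dox in Tet-PTF1a: KRT8 fell by 1.30, KRT18 by 1.10, KRT19 by 1.07 and EPCAM by 0.22 on the log2 scale, and KRT7 rose by 1.64 (edgeR's quasi-likelihood test, FDR 2.44e-44, 1.06e-40, 2.80e-07, 5.63e-07 and 3.69e-14). Of 6 fibroblast markers, COL1A1 and PDGFRB were listed in all 3 lines and COL3A1 in Tet-PTF1a alone. With Dox in Tet-PTF1a the mean of COL1A1 went from 153 to 64.5 CPM, of COL3A1 from 6.36 to 16.3 CPM and of PDGFRB from 0.638 to 0.601 CPM. Of 9 acinar markers PRSS1 alone was listed, in Tet-PTF1a, with means of 0.0565 CPM in Control and 3.15 CPM in Dox. The part of all these markers in the results was not tested. Human PTF1A had at most 2 counts in each Tet-PTF1a Control library and from 53 to 168 in the Dox libraries, although the induced reading frame is that of the mouse. In bulk RNA, fewer cells expressing a gene and less RNA per cell cannot be told apart. Tet-One Dox replicate 1 stood apart from its group. The biological coefficient of variation, edgeR's common estimate of scatter within Control and Dox beyond counting error, was 14.4% in Tet-One with it and 4.79% without it. Tet-MIST1 Dox replicate 1 also stood apart, less far, with 6.58% with it and 4.11% without it. Without it the Tet-MIST1 log2 fold changes were 0.97 for ATOH8 and -0.13 for SMAD5, and 2 of the 9 genes were called as with it, against 25.6% of all genes.

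In Tet-PTF1a, ATOH8 and BMP8A were far higher with Dox, SMAD1 was 2.30-fold higher and SMAD6 was at 0.265 of its Control level, while the receptors and SMAD5 differed little. CPM are the authors' deposited values, read counts divided by 1 factor per library that holds more than the library's total. A log2 fold change is edgeR's estimate for Dox against Control. Its standard error (SE) is not an output of edgeR and was worked back from the statistic of the quasi-likelihood test. A confidence interval is a normal approximation from that SE and can differ from the test. By the rule of FDR under 0.05, 8 of the 10 genes were called in Tet-PTF1a, 2 of 9 in Tet-MIST1 and 0 of 9 in Tet-One. The 8 were ATOH8, BMP8A, SMAD1 and SMAD9, higher with Dox, and BMPR2, ACVR1, SMAD5 and SMAD6, lower, and the 2 were ATOH8, higher, and SMAD5, lower. The background over all genes tested was 48.2% in Tet-PTF1a (23.8% higher, 24.4% lower), 20.6% in Tet-MIST1 (11.9% higher, 8.77% lower) and 0.0% in Tet-One, and nothing is read from the counts of these chosen genes. Without Tet-One Dox replicate 1, 0 of the 9 genes were called in Tet-One, against 0.00746% of all genes. None of the 9 genes in Tet-One had an unadjusted p under 0.05, and DESeq2 also called 0. In Tet-PTF1a the Dox and Control libraries did not overlap for 8 of the 10 genes, against 42.3% of all genes tested, 20.8% with all Dox above and 21.4% with all Dox below. In Tet-MIST1 this held for 2 of 9, against 27.1% (12.8% above, 14.4% below), and in Tet-One for 0 of 9, against 2.44% (1.27% above, 1.17% below).

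**Figure D1:**
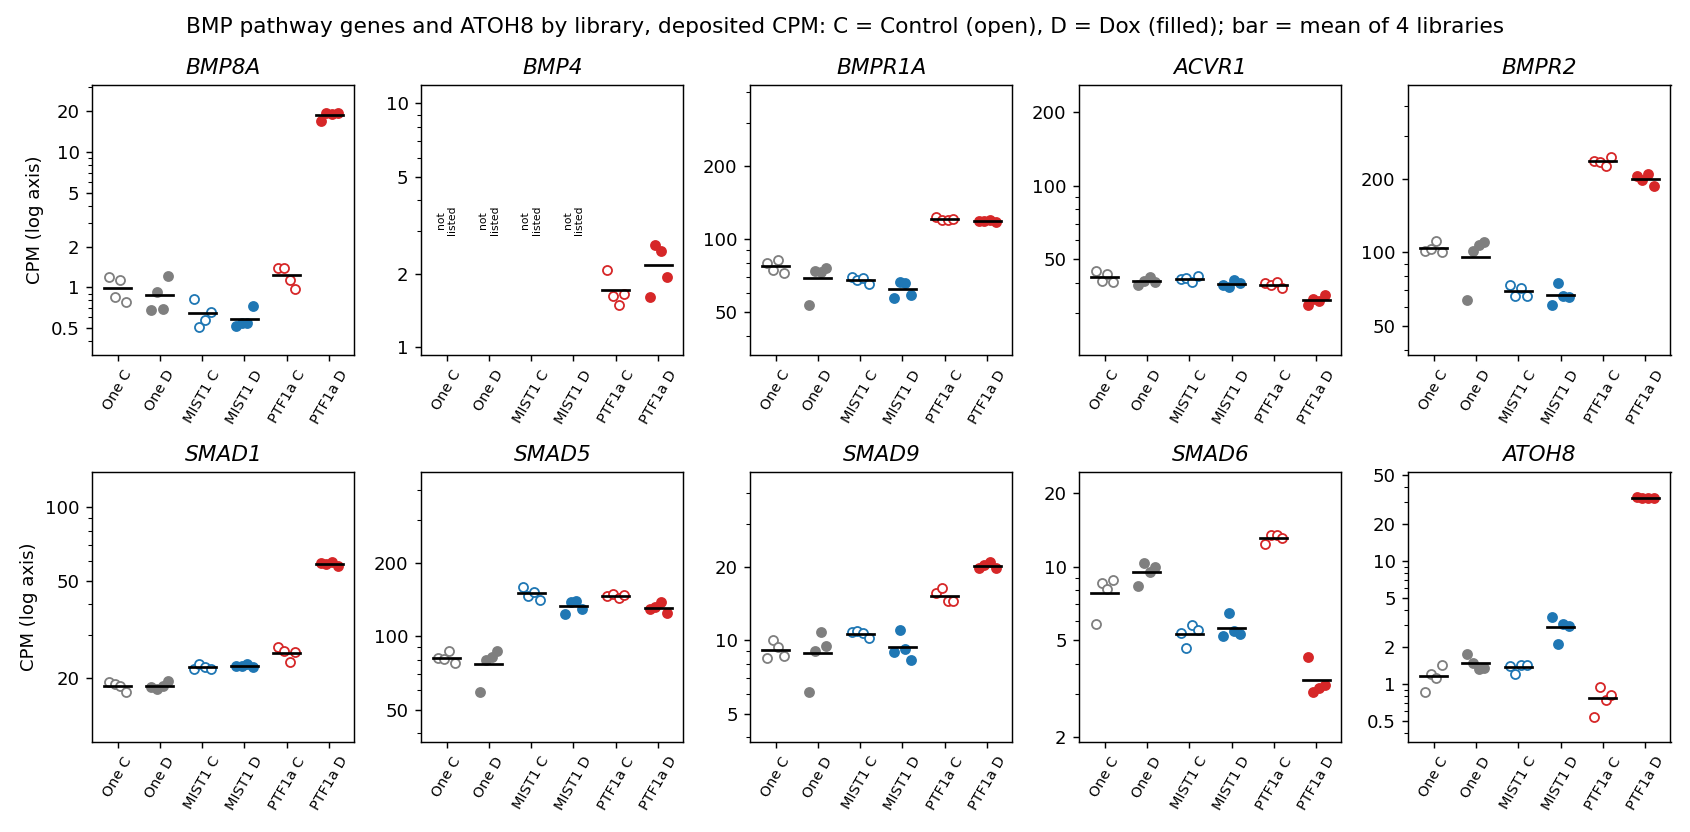
Deposited CPM (log axis, a separate range for each gene) of the 10 genes in each of the 24 libraries, with Control libraries (C) as open points, Dox libraries (D) as filled points and the mean of 4 libraries as a bar. The 4 Tet-PTF1a Dox libraries lie apart from every other library for ATOH8, BMP8A, SMAD1 and SMAD9 at the top of the panel. They also lie apart at the bottom for SMAD6 and, by a small gap, for ACVR1, and BMP4 was listed in Tet-PTF1a alone.

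The ligand gene BMP8A (hg19 chr1:39957318-39995541, plus strand, 7 listed exons of 5626 bases in total) encodes a BMP of the group that contains BMP5, BMP6 and BMP7. In Tet-PTF1a, BMP8A had 1.39, 1.40, 1.14 and 0.971 CPM in the Control libraries 1 to 4 and 17.0, 19.5, 19.0 and 19.3 CPM in the Dox libraries. Every Dox library was far above every Control library, and the log2 fold change was 3.87 (SE 0.0990), a 14.6-fold difference. In Tet-One, BMP8A had 1.20, 0.842, 1.14 and 0.783 CPM in Control and 0.685, 0.929, 0.697 and 1.21 CPM in Dox, which overlapped, with a log2 fold change of -0.16 (SE 0.232). In Tet-MIST1 it had 0.820, 0.507, 0.578 and 0.659 CPM in Control and 0.517, 0.542, 0.550 and 0.732 CPM in Dox, with a log2 fold change of -0.11 (SE 0.201). These groups overlapped as well, and the lowest count behind any of the 16 values was 21 reads.

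BMP8A has a near-identical neighbour, BMP8B, and 603 of the 5283 stretches of 50 bases along the BMP8A exons (11.4%) also occur in BMP8B, so that some reads could be counted on either gene. A further 7.39% of its exon bases overlap the antisense gene PPIEL. Per kilobase of exon, the ratio of BMP8A to BMP8B was 0.119 ± 0.0190 in Tet-PTF1a Control and 1.51 ± 0.0563 in Tet-PTF1a Dox (SD, n = 4). In the other 4 groups the mean ratio lay between 0.0915 and 0.111. BMP8B itself rose from 6.92 ± 0.266 to 8.30 ± 0.404 CPM in Tet-PTF1a (log2 fold change 0.27, SE 0.0784, FDR 0.00342 from edgeR's quasi-likelihood test), so that the 2 genes moved by very different amounts.

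BMP4 (hg19 chr14:54416455-54423554, minus strand), which encodes a ligand that patterns many embryonic tissues, was listed for Tet-PTF1a alone and was not analysed in the other lines. It had 2.07, 1.62, 1.49 and 1.65 CPM in Control and 1.61, 2.64, 2.47 and 1.95 CPM in Dox. The groups overlapped, with Dox replicates 1 and 4 within the Control range, and the log2 fold change was 0.28 (SE 0.163). BMP4 was called in 1 of 15 alternative fits, the one without Control replicate 1.

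The type I receptor gene BMPR1A (hg19 chr10:88516396-88684945, plus strand) had 123, 119, 120 and 121 CPM in Tet-PTF1a Control and 118, 119, 120 and 118 CPM in Dox. These libraries overlapped within a few percent, with a log2 fold change of -0.03 (SE 0.0267, 95% confidence interval from -0.08 to 0.02). In Tet-One it had 79.5, 74.6, 82.3 and 72.4 CPM in Control and 53.5, 74.2, 73.4 and 76.2 CPM in Dox, where replicate 1 was the low library. Its Tet-MIST1 log2 fold change was -0.11 (SE 0.0565), with Control from 65.3 to 70.0 and Dox from 57.4 to 66.8 CPM. Reads of BMPR1A could also be shared with 2 processed copies, BMPR1AP1 and BMPR1AP2, which hold 16.7% and 17.8% of its 50-base stretches.

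ACVR1 (hg19 chr2:158592958-158732374, minus strand), which encodes the type I receptor ALK2, differed least between lines. It had 39.8, 39.0, 40.5 and 37.9 CPM in Tet-PTF1a Control and 32.4, 34.3, 33.7 and 35.8 CPM in Dox, and every Dox library was below every Control library. The log2 fold change was -0.20 (SE 0.0409), against -0.06 (SE 0.0664) in Tet-One and -0.05 (SE 0.0439) in Tet-MIST1, where Control and Dox overlapped. Its 6 group means spanned only 1.30-fold.

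BMPR2 (hg19 chr2:203241050-203432474, plus strand), the type II receptor gene mutated in heritable pulmonary arterial hypertension, had 238, 234, 226 and 246 CPM in Tet-PTF1a Control and 207, 198, 211 and 188 CPM in Dox. All Dox libraries lay below all Control libraries, and the log2 fold change was -0.24 (SE 0.0308). In Tet-One, Dox replicate 1 had 63.7 CPM and the other 3 Dox libraries 102 to 110 CPM, and the log2 fold change was -0.12 (SE 0.160) with that library and 0.03 (SE 0.0468) without it. The Tet-MIST1 value was -0.04 (SE 0.0648). With all 24 libraries in one fit, the BMPR2 call in Tet-PTF1a was lost.

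SMAD1 (hg19 chr4:146402951-146480325, plus strand) was the one receptor-regulated SMAD with a large difference. In Tet-PTF1a it had 26.7, 25.7, 23.2 and 25.4 CPM in Control and 59.3, 58.5, 59.8 and 57.3 CPM in Dox. The 4 Dox libraries lay close together and far above Control, with a log2 fold change of 1.20 (SE 0.0406), a 2.30-fold difference. In Tet-One SMAD1 had 18.5 ± 0.751 CPM in Control and 18.5 ± 0.543 CPM in Dox, and in Tet-MIST1 22.1 ± 0.422 and 22.4 ± 0.229 CPM (SD, n = 4). The log2 fold changes there were 0.00 (SE 0.0627) and 0.03 (SE 0.0442). An antisense gene, SMAD1-AS1, overlaps 12.1% of the SMAD1 exon bases, and the use of strand in counting is not given in the sources used here.

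SMAD5 (hg19 chr5:135468534-135518422, plus strand) had 146, 149, 144 and 148 CPM in Tet-PTF1a Control and 130, 132, 138 and 124 CPM in Dox. Dox was below Control in every library, by a log2 fold change of -0.17 (SE 0.0277). The Tet-MIST1 value was similar, -0.16 (SE 0.0536), with 159, 147, 152 and 141 CPM in Control and 123, 139, 140 and 130 CPM in Dox, again without overlap. That call was weak: it was kept in 6 of 16 alternative fits and was lost without any one of Control replicates 1, 2, 3 and 4 or Dox replicates 3 and 4. The SMAD5 call in Tet-PTF1a was lost in 1 of 16 fits, that with all 24 libraries. In Tet-One the log2 fold change was -0.08 (SE 0.117), and 0.02 (SE 0.0469) without Dox replicate 1.

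SMAD9 (hg19 chr13:37418968-37494409, minus strand), the remaining receptor-regulated SMAD gene, had 15.6, 16.4, 14.5 and 14.5 CPM in Tet-PTF1a Control and 19.8, 20.3, 20.9 and 19.8 CPM in Dox. Dox was above Control in every library, by a log2 fold change of 0.41 (SE 0.0554). In Tet-MIST1 it was -0.17 (SE 0.0813), with Control from 10.2 to 10.9 CPM and Dox from 8.32 to 11.1 CPM, and it was called there only without Dox replicate 2. The Tet-One value was -0.04 (SE 0.160), and 0.10 (SE 0.0832) without Dox replicate 1.

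Because the 3 transducers differ in length, their amounts were also set side by side per kilobase of exon. They come from the deposited CPM, scaled separately for each line, so the sums are not on a common scale across lines. Shares and ratios within a library do not depend on the scaling. In Tet-PTF1a the sum of SMAD1, SMAD5 and SMAD9 was 31.5 ± 0.830 CPM per kilobase in Control and 40.9 ± 1.19 in Dox (SD, n = 4). SMAD1 made up 25.7% ± 0.965 of this sum in Control and 46.1% ± 0.638 in Dox, and SMAD5 65.7% ± 1.05 and 45.1% ± 0.648. SMAD1 thus went from a minor share to about the share of SMAD5, while SMAD9 stayed at 8.65% ± 0.359 and 8.82% ± 0.135. In Tet-One the SMAD1 share was 31.2% ± 0.975 in Control and 32.7% ± 3.85 in Dox, and in Tet-MIST1 23.6% ± 0.961 and 26.1% ± 1.13. The highest SMAD1 share outside Tet-PTF1a Dox, 38.4%, was in Tet-One Dox replicate 1.

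**Figure D2:**
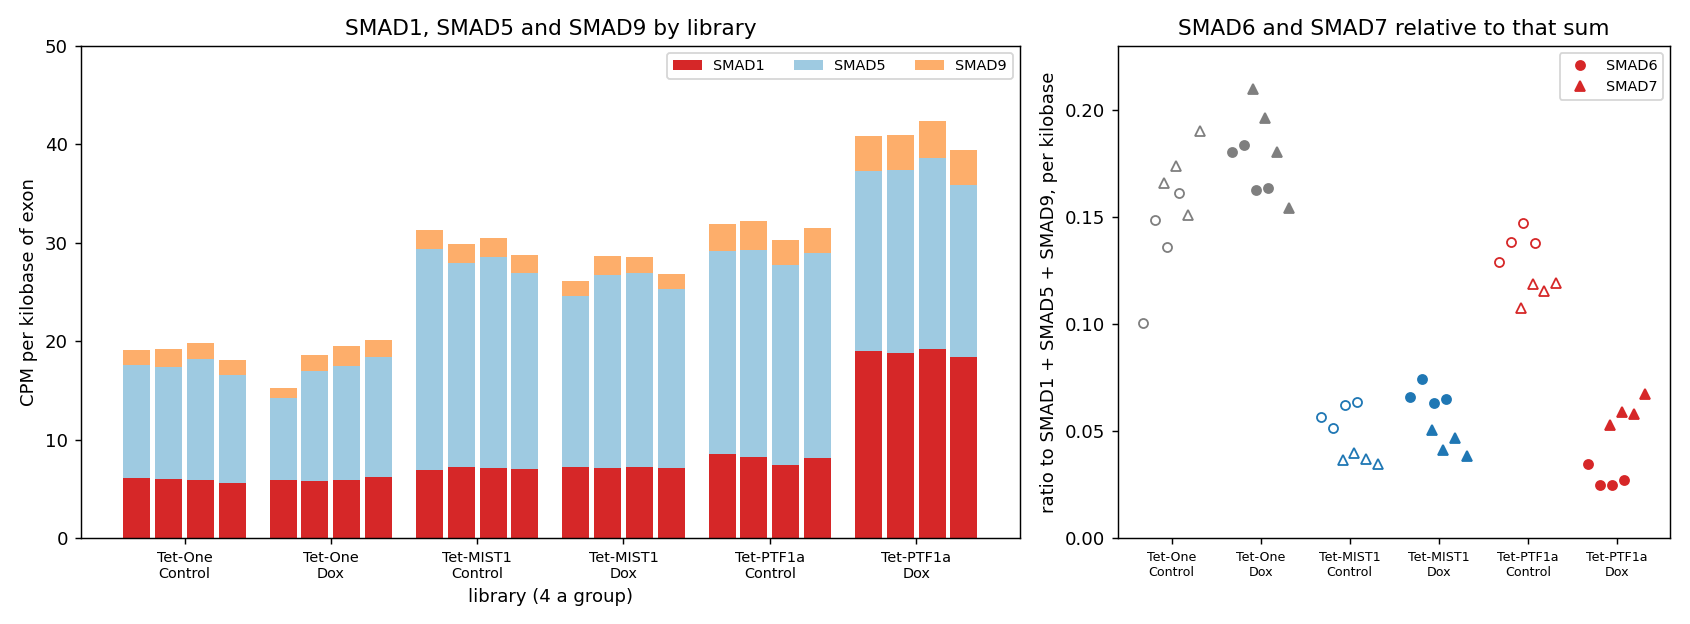
Left, stacked CPM per kilobase of exon (deposited CPM, scaled separately for each line) of SMAD1, SMAD5 and SMAD9 in each library, 4 a group. Right, SMAD6 (circles) and SMAD7 (triangles) per kilobase divided by the sum of the 3, open for Control and filled for Dox. The SMAD1 block is largest in the 4 Tet-PTF1a Dox libraries, and SMAD6 relative to the sum is lowest there, from 0.0248 to 0.0346.

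SMAD6 (hg19 chr15:66994674-67074337, plus strand) encodes an inhibitory SMAD and was lower with Dox in Tet-PTF1a. It had 12.4, 13.4, 13.4 and 13.1 CPM in Tet-PTF1a Control and 4.25, 3.06, 3.19 and 3.26 CPM in Dox. No Dox library came near Control, replicate 1 being the highest of the Dox group, and the log2 fold change was -1.92 (SE 0.0879), or 0.265 of the Control level. In Tet-One SMAD6 had 5.79, 8.60, 8.12 and 8.79 CPM in Control and 8.32, 10.3, 9.54 and 9.92 CPM in Dox, which overlapped, with a log2 fold change of 0.29 (SE 0.139). The Tet-MIST1 value was 0.09 (SE 0.0942). Relative to the sum of the 3 transducers, per kilobase, SMAD6 was 0.138 ± 0.00737 in Tet-PTF1a Control and 0.0280 ± 0.00455 in Dox (SD, n = 4).

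ATOH8 (hg19 chr2:85980909-86018506, plus strand, 3 listed exons) showed the widest range of the 10 genes. In Tet-PTF1a it had 0.542, 0.952, 0.744 and 0.814 CPM in Control, from 15 to 31 reads, and 33.2, 32.5, 32.8 and 32.4 CPM in Dox. The Dox libraries were nearly equal, the log2 fold change was 5.35 (SE 0.0927), and no alternative fit gave less than 5.17. In Tet-MIST1 it had 1.39, 1.20, 1.43 and 1.43 CPM in Control and 3.50, 2.12, 3.06 and 2.93 CPM in Dox. Every Tet-MIST1 Dox library was above every Control library, with a log2 fold change of 1.08 (SE 0.155). In Tet-One it had 0.867, 1.21, 1.12 and 1.42 CPM in Control and 1.76, 1.49, 1.31 and 1.35 CPM in Dox, which overlapped, with a log2 fold change of 0.35 (SE 0.173). ATOH8 was the one gene of the 10 with higher values in all Dox libraries of both induced lines, but the difference of its Tet-MIST1 response from that of Tet-One, 0.72 (SE 0.239), was not called. Without Tet-One Dox replicate 1 that difference was 0.81 (SE 0.241) and was called, against 14.1% of all genes in that fit.

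**Figure D3:**
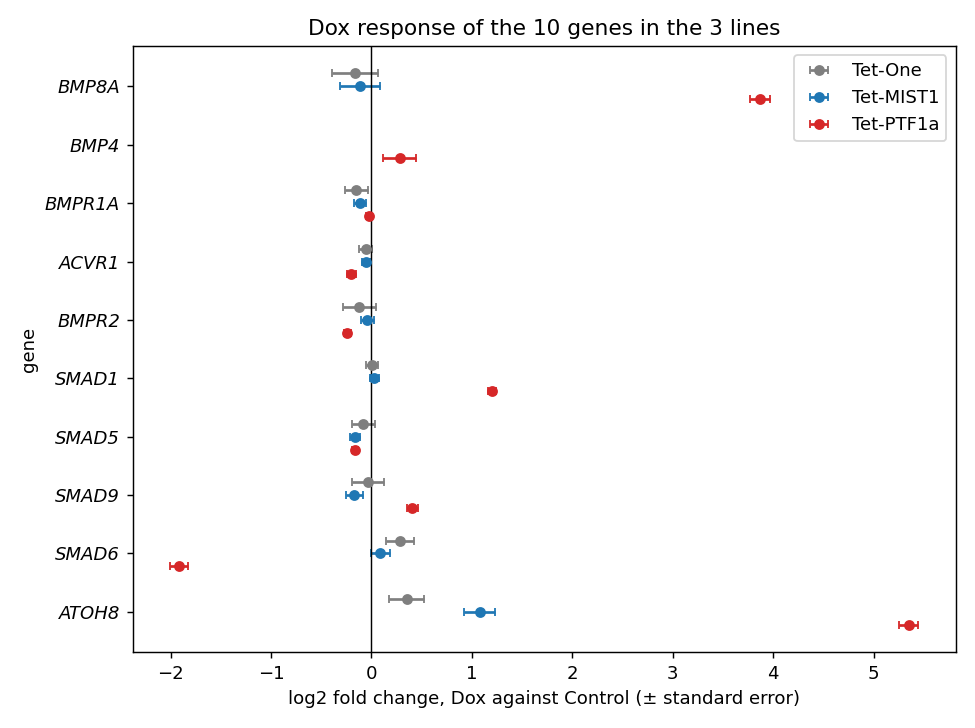
Log2 fold change of Dox against Control from edgeR for the 10 genes in Tet-One (grey), Tet-MIST1 (blue) and Tet-PTF1a (red), each over 4 and 4 libraries, with bars of 1 standard error. The Tet-PTF1a points away from the other lines are at 5.35 for ATOH8, 3.87 for BMP8A, 1.20 for SMAD1, 0.41 for SMAD9 and -1.92 for SMAD6, and ATOH8 in Tet-MIST1 is at 1.08.

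The difference between the Tet-PTF1a and Tet-One responses was 5.01 (SE 0.212) for ATOH8, 4.04 (SE 0.253) for BMP8A, 1.21 (SE 0.0730) for SMAD1, -2.20 (SE 0.178) for SMAD6 and 0.44 (SE 0.173) for SMAD9 on the log2 scale. For the other 4 genes in both tables it was -0.15 (SE 0.0692) for ACVR1, -0.12 (SE 0.173) for BMPR2, -0.09 (SE 0.125) for SMAD5 and 0.12 (SE 0.120) for BMPR1A. By FDR under 0.05, 4 of the 9 were called, ATOH8, BMP8A, SMAD1 and SMAD6, so that the SMAD9, BMPR2, SMAD5 and ACVR1 responses called in Tet-PTF1a were not called as different from Tet-One. Without Tet-One Dox replicate 1 the differences were 5.12 for ATOH8, 3.95 for BMP8A, 1.20 for SMAD1, -2.26 for SMAD6 and 0.31 for SMAD9, and 7 of the 9 were called, with SMAD9, BMPR2 and SMAD5 added, against 30.7% of all genes. Against Tet-MIST1 the differences were 4.31 (SE 0.214) for ATOH8, 4.00 (SE 0.242) for BMP8A, 1.19 (SE 0.0607) for SMAD1, -2.00 (SE 0.133) for SMAD6 and 0.59 (SE 0.0966) for SMAD9. They were -0.18 (SE 0.0743) for BMPR2, -0.14 (SE 0.0562) for ACVR1, 0.10 (SE 0.0593) for BMPR1A and 0.01 (SE 0.0606) for SMAD5, and the first 5 of these 9 genes were called. Between Tet-MIST1 and Tet-One edgeR and DESeq2 called 0 of the 9, and 1 had an unadjusted p under 0.05 in each. The background for these 3 comparisons was 12.9%, 36.4% and 1.67% of all genes, and nothing is read from the counts. The lines have separate Control libraries, and the comparisons of Tet-PTF1a with the other lines share the Tet-PTF1a libraries.

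Some of the 10 genes also differed between lines without Dox. Per kilobase, BMPR2 had 19.0 ± 0.718 CPM in Tet-PTF1a Control, 8.80 ± 0.465 in Tet-One Control and 5.82 ± 0.327 in Tet-MIST1 Control (SD, n = 4), and these ranges did not meet. BMPR1A stood at 32.5 ± 0.547, 21.8 ± 1.36 and 19.1 ± 0.592 in the same order, and ACVR1 at 12.3 ± 0.324, 13.8 ± 0.758 and 13.5 ± 0.309, where the Tet-PTF1a Control libraries lay below those of the other lines. SMAD5 had 20.1 ± 0.349 in Tet-PTF1a, 11.7 ± 0.576 in Tet-One and 21.4 ± 1.08 CPM per kilobase in Tet-MIST1 Control. ATOH8 and BMP8A were scarce in every Control group, between 0.127 and 0.236 CPM per kilobase for ATOH8 and between 0.116 and 0.212 for BMP8A. Across the 6 groups the order of ATOH8 was Tet-PTF1a Dox, Tet-MIST1 Dox, Tet-One Dox, Tet-MIST1 Control, Tet-One Control and Tet-PTF1a Control, with overlap between neighbours from the third group on. For BMP8A all neighbours below Tet-PTF1a Dox overlapped. SMAD1 ran from Tet-PTF1a Dox and Tet-PTF1a Control through Tet-MIST1 Dox and Control to Tet-One Dox and Control, with gaps after the first and the fourth group. SMAD6 was highest in Tet-PTF1a Control and lowest in Tet-PTF1a Dox, both apart from their neighbours.

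The other BMP pathway genes were taken from lists of ligands, receptors, SMADs, antagonists, intracellular regulators and targets, 74 genes of which 50 were listed. These lists were set with earlier results of the same libraries known. Their counts here and below are therefore a description, and no enrichment is read from them. In Tet-PTF1a, 36 of the 50 tested were called, 21 higher and 15 lower with Dox, with a median log2 fold change of 0.08, against 48.2% called and a median of 0.00 over all genes tested. In Tet-MIST1 8 of 43 were called, 4 higher and 4 lower, against 20.6%. In Tet-One 0 of 42 were called by edgeR, 0 had an unadjusted p under 0.05 and DESeq2 called 0.

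Of 12 tested BMP target genes outside the 10 genes, 7 rose and 3 fell in Tet-PTF1a, against 23.8% higher and 24.4% lower over all genes, with a median log2 fold change of 0.78. Like shares were called for 5 of 6 ligand genes (4 higher) and 6 of 7 receptor genes (3 higher), with medians of 0.26 and 0.12. The shares were lower for antagonists and modulators (8 of 12), intracellular regulators (9 of 14) and SMAD4 and SMAD7 (1 of 2). ID3, an inhibitor of bHLH factors, had 44.6, 52.2, 51.1 and 52.0 CPM in Control and 362, 370, 361 and 384 CPM in Dox, a log2 fold change of 2.90 (SE 0.0441, FDR 3.36e-15 from edgeR's quasi-likelihood test). ID2 rose from 5.78 ± 0.660 to 36.1 ± 2.37 CPM (log2 fold change 2.65, FDR 1.81e-34) and ID1 from 93.6 ± 7.87 to 433 ± 7.30 CPM (2.21, FDR 4.67e-08), each SD over n = 4 in the same edgeR test. HEY1, also a Notch target, rose by 1.72 (FDR 3.04e-25), DLX3 by 1.11 (FDR 1.45e-08) and MSX1 by 0.75 (FDR 6.95e-06) on the log2 scale, DLX3 and MSX1 being homeobox genes. The targets that fell were PMEPA1, an inhibitor of TGF-beta signalling, by 1.05 (FDR 1.86e-33), the decoy receptor gene BAMBI by 0.86 (FDR 0.00212) and SMAD7 by 0.55 (FDR 4.40e-09). NOG, a target that encodes a secreted BMP antagonist, rose by 0.80 (FDR 6.95e-11).

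Among the other ligand genes in Tet-PTF1a, BMP3 rose from 0.972 ± 0.401 to 3.57 ± 0.504 CPM (SD, n = 4, log2 fold change 1.68, FDR 7.57e-11 in edgeR), and BMP7 rose by 0.25 (FDR 0.00149). BMP6, the ligand best known from iron metabolism, fell by 0.68 (SE 0.0429, FDR 4.64e-19), and BMP5 (0.27, FDR 0.0103) was named after its value was seen, as was BMP8B. BMP2 was not listed in any line and could not be analysed. Of the other receptor genes, BMPR1B rose by 0.19 (FDR 0.0274) and ACVR2B by 0.20 (FDR 0.00615), and ACVR2A had a log2 fold change of 0.12 (FDR 0.152). The common partner SMAD4 had 71.6 ± 1.57 and 72.1 ± 1.63 CPM, with a log2 fold change of 0.02 (SE 0.0321, FDR 0.710). Of 12 antagonists and modulators tested, 5 rose and 3 fell: the BMP antagonist CHRD rose by 1.34 (FDR 5.17e-20), FSTL3, which binds activins, fell by 0.63 (FDR 4.96e-16) and the protease gene TLL1 by 0.62 (FDR 0.0141), a call lost with DESeq2 and without Dox replicate 4. Of 14 intracellular regulators 3 rose and 6 fell.

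**Figure D4:**
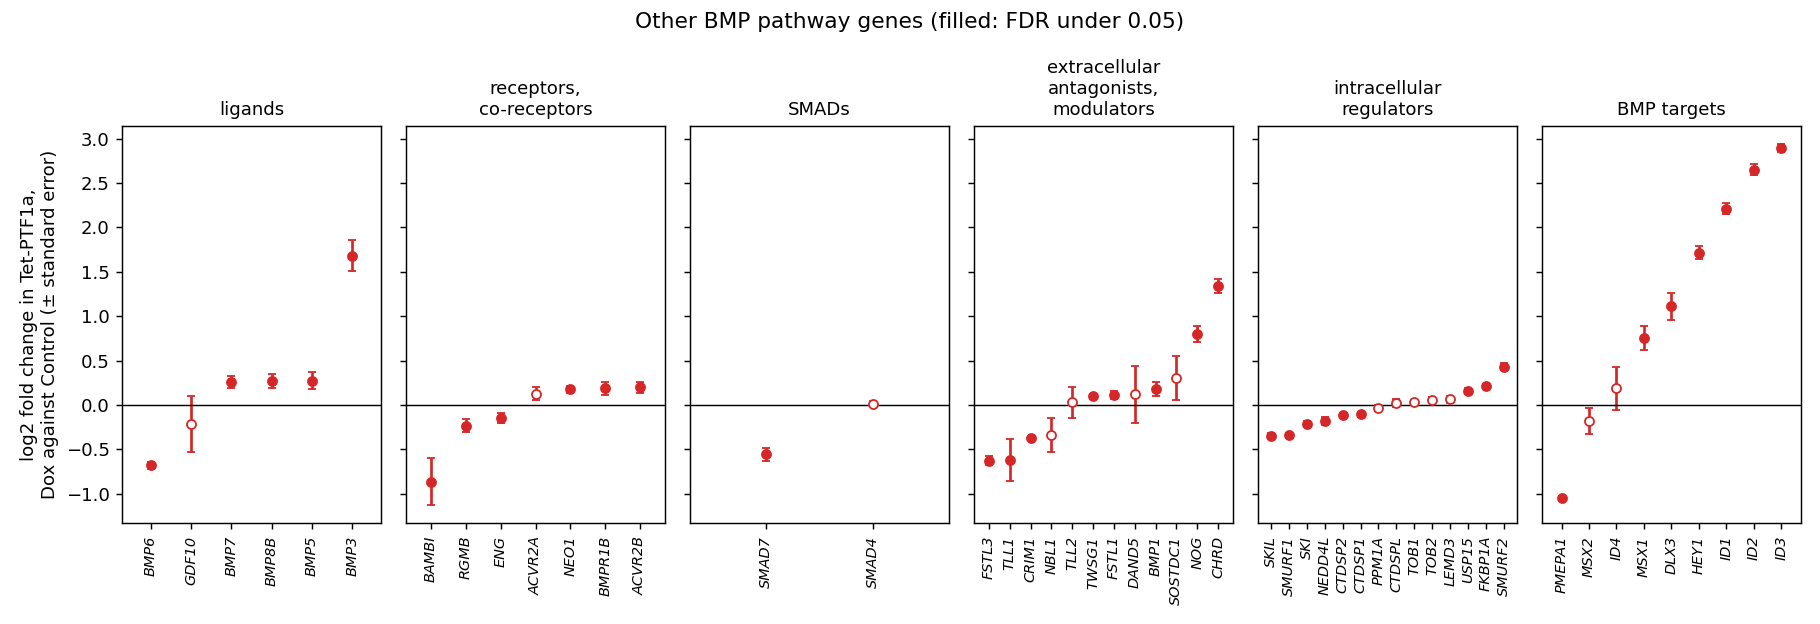
Log2 fold change of Dox against Control in Tet-PTF1a for the 50 other BMP pathway genes tested, by role, with bars of 1 standard error and filled points for FDR under 0.05. ID1, ID2 and ID3 stand highest, between 2.21 and 2.90, and PMEPA1 lowest, at -1.05; a gene on more than one list is drawn once.

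In Tet-MIST1 the called changes were small. HEY1 fell by 0.51 (FDR 0.00645), BMP6 by 0.42 (FDR 1.87e-04), SMURF2 by 0.30 (FDR 0.00508) and SMURF1 by 0.29 (FDR 0.0222) on the log2 scale, SMURF1 and SMURF2 being ubiquitin ligases that act on SMADs and receptors. DLX3 rose by 0.41 (FDR 0.0113), RGMB, a BMP co-receptor, by 0.41 (FDR 2.24e-04), FSTL3 by 0.25 (FDR 0.0305) and TOB1 by 0.20 (FDR 0.0418), all in edgeR's quasi-likelihood test. The ID genes gave log2 fold changes of 0.10 for ID1, 0.13 for ID2 and -0.10 for ID3, none past the test. SMURF1 and FSTL3 were not called without Control replicate 1 or 3, FSTL3 also without Control replicate 2, and TOB1 without any of Control replicates 1, 2 and 3 or Dox replicates 2 and 3.

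Tested directly as an interaction of line and Dox, 11 of 43 other BMP genes responded differently in Tet-PTF1a and Tet-One, 7 with a higher and 4 with a lower value in Tet-PTF1a, against 12.9% of all genes (5.52% higher, 7.34% lower), and 23 did so without Tet-One Dox replicate 1, against 30.7% of all genes in that fit. Between Tet-PTF1a and Tet-MIST1 there were 23 of 43, 14 higher and 9 lower, against 36.4% (17.8% higher, 18.6% lower). The difference to Tet-One was 2.52 for ID3 (FDR 2.02e-06), 2.60 for ID2 (FDR 2.09e-08), 1.72 for ID1 (FDR 1.54e-04) and -0.63 for SMAD7 (FDR 6.67e-04) on the log2 scale in edgeR. In Tet-One Dox replicate 1 ID1 had 180.1 CPM, against 90.6 to 97.2 in the other 3 Dox libraries, and without that library its difference was 2.02. Between Tet-MIST1 and Tet-One 1 of 43 differed, against 1.67% (1.49% higher, 0.188% lower): RGMB, by 0.51 in edgeR (FDR 0.0233).

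Genes with the most similar pattern were found by the root mean square difference of the 6 group means of log2 CPM, each centred on its own mean, over 13506 genes. Nearest to BMP8A was NPHS1 (0.261), which encodes nephrin, followed by HEYL (0.364), COL5A3 (0.442), SEMA3G (0.545) and KIAA1161 (0.588). For ATOH8 they were COL5A3 (0.608), FBN3 (0.657), KIRREL2 (0.745), SEMA3G (0.753) and HEYL (0.781), so that COL5A3, SEMA3G and HEYL were on both lists. NPHS1 did not pass the filter on low counts in Tet-MIST1, nor COL5A3 in Tet-One, so their levels there are near the floor. The gene nearest to SMAD1 was NGFR (0.0405), and to SMAD6 it was INHBB (0.203), which encodes an activin and inhibin subunit. PRKX (0.0494) was nearest to SMAD9 and CXCL1 (0.0439) to BMPR2. These are distances over 6 groups of 3 clones, in which a few large Tet-PTF1a differences weigh most.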

How the data were processed

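Reads from 24 Panc-1 libraries had been aligned by the authors to hg19 with TopHat; the submitters' processing notes also name HTSeq, DESeq and edgeR. The authors deposited, for each line, read counts per gene without normalization, and CPM values that also hold a scaling factor for each library, so their columns sum to different totals and the tables are scaled separately. Strand use in counting and the annotation are not given in the sources used here. Columns with the authors' own comparisons (log2 fold change, p-value and FDR) were not used, no column of another sample was present (0), and 20 gene names turned into dates in each table were left out of joined tables. The 10 genes, the lists and the tests were chosen with earlier results of these data known.

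In R 4.3.3, edgeR 4.0.16 was fitted to the counts of each line to set Dox against Control, with its quasi-likelihood test (TMM, robust, prior count 2, over 0.5 CPM in at least 4 libraries, Benjamini-Hochberg over all genes tested, FDR limit 0.05), and between lines as an interaction over 16 libraries. Levels across lines used one set of TMM factors over the 13506 genes in all 3 tables. Per-kilobase sums, shares and ratios of the SMAD genes, and the BMP8A to BMP8B ratio, used the deposited CPM. The study's methods name 4 biological replicates a group, and each library was counted as its own replicate. Chi-square per degree of freedom between replicates was at least 1.38. That is scatter above counting error, which cannot show that the libraries are independent. Named genes were the 10, ID1, ID2, ID3, SMAD4, SMAD7, BMPR1B, ACVR2A, ACVR2B, BMP2, BMP7 and NOG, up to 15 further called BMP genes per line by size of change, and the 5 genes most similar to each of the 10 whose group means spanned over 1 on the log2 scale. Alternatives were DESeq2 1.42.0, edgeR's likelihood ratio test, library size and upper quartile scaling, no filter, a minimum of 10 counts per library, a block for replicate number, one fit of all 24 libraries, and each library left out. The fits were also run on counts simulated with the same spread for every line and with no library standing apart. The spread of the data was 14.4% in Tet-One and 2.80% in Tet-PTF1a, so that run cannot vouch for the calls here. Promoters are from RefSeq (GRCh38.p14), and overlaps and shared sequence from the GRCh37 annotation.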

Additional observations from a re-analysis of the deposited data

Results flagged for a closer look

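Of 188 groups of 4 libraries tested for a library standing apart by Dixon's criterion, 10 gave such a library, and chance alone gives about 1 in 20. Those of Tet-One Dox replicate 1 were BMPR1A (53.5 CPM), ID1 (180.1 CPM), ID3 (111 CPM), MSX1 (4.66 CPM) and SMURF1 (79.0 CPM). In Tet-PTF1a they were SMAD6 in Dox replicate 1 (4.25 CPM), HEY1 in Dox replicate 3 (14.1 CPM) and ID3 in Control replicate 1 (44.6 CPM), and in Tet-MIST1 BMP8A in Dox replicate 4 (0.732 CPM) and ACVR2A in Control replicate 3 (5.30 CPM). In Tet-One Dox replicate 1, BMPR2 was at 59.8%, SMAD9 at 62.8%, SMAD5 at 71.3% and BMPR1A at 71.8% of the mean of the other 3 Dox libraries, while ATOH8 was at 128% and SMAD1 at 98.6%.

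The response of other BMP genes differed between lines by the test of line and Dox in edgeR for 11 of 43 genes (Tet-PTF1a and Tet-One, against 12.9% of all genes), 1 of 43 (Tet-MIST1 and Tet-One, against 1.67%) and 23 of 43 (Tet-PTF1a and Tet-MIST1, against 36.4%). Tet-PTF1a minus Tet-One gave 1.72 for ID1, 2.60 for ID2, 2.52 for ID3 and -0.63 for SMAD7 on the log2 scale. Tet-PTF1a minus Tet-MIST1 gave 2.12 for ID1, 2.53 for ID2, 3.00 for ID3, -0.69 for SMAD7 and 0.80 for NOG.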

How the results depend on the processing

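Over all alternatives, from 6 to 9 of the 10 genes were called in Tet-PTF1a and 0 in Tet-One. None of 447 alternative log2 fold changes of these genes turned a called difference to the other direction. Calls themselves were less stable: SMAD5 in Tet-MIST1 kept its call in 6 of 16 fits, and BMPR2 and SMAD5 in Tet-PTF1a each in 15 of 16. In Tet-MIST1 the count fell from 2 to 1 with library size scaling, without the filter and with all 24 libraries in one fit, and ran from 1 to 3 with single libraries left out. Other BMP genes called with Dox ran from 5 to 12 in Tet-MIST1 (8 in the main result) with single libraries left out, 5 without Control replicate 1 or 3, and fell from 36 to 17 in Tet-PTF1a with all 24 libraries, a fit of 43 shared genes. Other BMP genes with a different response ran from 11 to 23 for Tet-PTF1a and Tet-One (23 without Tet-One Dox replicate 1, when the share of all genes went from 12.9% to 30.7%) and from 0 to 4 for Tet-MIST1 and Tet-One with single libraries left out, the latter 2 with DESeq2 and 2 with library size scaling. The RGMB call was lost without Tet-MIST1 Control replicate 2 or 4, Tet-MIST1 Dox replicate 3 or 4, or Tet-One Control replicate 3 or Dox replicate 3. The causes were not tested. Among the alternatives, the share of all genes called is given only without Tet-One or Tet-MIST1 Dox replicate 1. For the other alternatives a change in these counts cannot be told apart from a change over all genes, and nothing is read from it. BMPR1A in Tet-PTF1a was 0.01 with library size scaling in place of -0.03, on the log2 scale. Of the other named genes, 19 of 364 alternative values lost the call.

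Replicate numbers are shared between Control and Dox, but deviations of same-numbered libraries correlated from -0.244 to 0.180, so the numbers were not taken as pairs. With the replicate block the count of the 10 genes called was 1 in Tet-MIST1, other BMP genes called there were 5 and those with a different response in Tet-MIST1 and Tet-One 0. The share of all genes called with that block is not given here, so nothing is read from these counts. Counts of 15 to 31 reads limit ATOH8 in Tet-PTF1a Control, and 21 to 25 reads BMP8A in Tet-MIST1 Dox.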
